A study of Mus musculus with 6 samples.

Results

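The genes described here are 9 transcription factors and transcriptional cofactors that pattern the dorsal telencephalon (pallium) and give cortical areas their identity: Emx1, Emx2, Lhx2, Lhx9, Dmrta1, Dmrt3, Bhlhe22, Lmo4 and Lmo3. They were chosen by name, as the rows of the count table with exactly these symbols, and all 9 were found among 45583 rows. All 9 also passed the filter on low counts, which left 13741 genes for testing. RNA came from the cortex of 6 male fetuses at GD15.5 (gestational day, as the labels and the study's methods give it, while its results text gives a day later), each giving 1 library. Dams of the Cyp19-EGFP strain, which carries an added bacterial artificial chromosome with the aromatase gene and a green fluorescent protein inserted in it, were injected daily under the skin from GD10.5 to GD14.5. The BPA group (3 fetuses) received bisphenol A, a plastic monomer that mimics estrogen, at 50 µg/kg, and the vehicle group (3 fetuses) received the carrier alone, ethanol in peanut oil per the study's text. The strain was kept on an FVBN background. All fetuses of both groups were labelled wild type and SRY positive, without a statement on the transgene. The labels give a fetus number but no dam, so fetuses of a group may share a litter, and p-values then measure only the spread between these fetuses.

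The pallium is patterned by gradients of transcription factors in the progenitors that line the ventricle. Emx1 and Emx2 are homeodomain proteins of dorsal progenitors, and Emx2 favors posterior and medial area identity. Lhx2 is a LIM homeodomain protein that specifies cortex against the cortical hem and the lateral border of the pallium, and Lhx9 is its closest relative. Dmrt3 and Dmrta1 are DM domain factors, graded from medial to lateral in the same progenitors. Bhlhe22, a basic helix-loop-helix repressor, acts after cell division and carries area identity into neurons. Lmo4 and Lmo3 have LIM domains but no DNA-binding domain, and such proteins compete with LIM homeodomain factors for the cofactor Ldb1.

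The genes lie at separate loci of GRCm38 (GENCODE M21), apart from shared chromosomes. Emx1 is on chromosome 6 from 85187438 to 85204462 (plus strand), and Emx2 is on chromosome 19 from 59458372 to 59465357 (plus strand). Lhx2 is on chromosome 2 from 38339281 to 38369733 (plus strand), and Lhx9 is on chromosome 1 from 138825186 to 138848577 (minus strand). Dmrta1 is on chromosome 4 from 89679436 to 89694772 (plus strand), and Dmrt3 is on chromosome 19 from 25610301 to 25623921 (plus strand). Bhlhe22, whose exonic sequence forms 1 block, is on chromosome 3 from 18054174 to 18057517 (plus strand). Lmo4 is on chromosome 3 from 144188530 to 144205220 (minus strand), and Lmo3 is on chromosome 6 from 138362918 to 138581968 (minus strand). Counts refer to exons of these genes. Emx2 was the only member whose exons overlap those of another annotated gene, the antisense transcript Emx2os, over 264 bases. It shares 7.18% of its 50-base words (the read length) with Emx2os, while each other member shared at most 0.29% with any other gene. Emx2os had from 4 to 21 counts per library, against 126 to 340 for Emx2.

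The windows before the RefSeq transcription starts differed among these genes in their density of CG dinucleotides. RefSeq (GRCm38.p6) starts were available for 8 of the 9 genes, Bhlhe22 being the exception, and gave 11 windows of 250 bases. The observed over expected CG ratio had a median of 0.378 in 32536 windows of all genes. It lay between 0.771 and 1.04 in the windows of Emx1, Emx2, Lhx2 and Lmo4 and was 0.516 for Dmrt3, 0.40 for Lmo3, 0.281 for Dmrta1 and 0.223 for Lhx9. Several windows lie inside the GENCODE span of their gene. Among them are those of Lhx9 (138842445 to 138842694) and Dmrta1 (89687948 to 89688197). The windows of Emx1, Emx2, Dmrt3 and Lhx9, Lhx2 from 38351058 and Lmo4 from 144202333 overlap exons of their own gene. These ratios therefore need not describe the sequence before a gene's outermost start. The 2 windows below are shown because Lhx2 followed the variation between fetuses that most of the 9 genes shared and Lmo3 did not. They do not stand for the set, since Dmrt3 (0.516) and Lhx9 (0.223), whose windows overlap exons of their own gene, followed it too. A link between CG density and that variation was not tested. Neither window overlaps a GENCODE exon of the 9 genes or of Emx2os, and exons of other genes were not searched. The Lmo3 window lies within the span of an annotated antisense gene, B230110G15Rik (chromosome 6 from 138580624 to 138599314). Both windows are written 5′ to 3′ on the gene's strand, with each CG dinucleotide in capitals. The Lhx2 window, chr2:38339031-38339280 on the plus strand, has 25 of them, and the Lmo3 window, chr6:138581969-138582218 on the minus strand, has 6.
Lhx2: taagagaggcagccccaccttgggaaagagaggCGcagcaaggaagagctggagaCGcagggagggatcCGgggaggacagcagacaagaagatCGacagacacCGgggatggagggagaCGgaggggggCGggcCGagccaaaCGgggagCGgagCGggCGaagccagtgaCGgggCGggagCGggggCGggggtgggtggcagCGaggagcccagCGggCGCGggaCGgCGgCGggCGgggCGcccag
Lmo3: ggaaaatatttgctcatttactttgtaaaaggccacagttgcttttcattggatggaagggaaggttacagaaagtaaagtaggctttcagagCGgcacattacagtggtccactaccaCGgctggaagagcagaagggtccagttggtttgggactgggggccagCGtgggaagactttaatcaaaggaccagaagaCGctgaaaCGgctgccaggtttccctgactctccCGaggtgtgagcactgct
The ratio of this Lhx2 window was 0.895. The same windows were searched on both strands for GGTCANNNTGACC, the core of a palindromic estrogen response element, which was in 0 of the 11 member windows and in 0.0645% of all windows. Its repeated unit GGTCA, which is also part of the longer motif, was in 3 of 11 member windows (1 of Dmrta1 and 2 of Lmo4 that overlap each other) and in 35.3% of all windows. The homeodomain core TAATTA was in 0 of 11 and in 4.84%. A match or its absence describes these letters in these windows only.

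Total counts ranged from 5030652 to 7180835 in the vehicle libraries and from 3444601 (BPA replicate 3) to 6426857 in the BPA libraries. Markers of the labelled tissue were abundant: the 12 cortical neuron markers summed to 10350 to 11010 CPM (counts on the per-million-reads scale, with library sizes adjusted by TMM, the trimmed mean of M-values), and the 10 radial glia markers to 1726 to 1918 CPM. Markers of the ventral telencephalon, which lies beside the cortex, were present in every library. They summed to 1438 to 1608 CPM in vehicle and to 1232 to 1349 CPM in BPA. Of 14 diencephalon markers 4 never exceeded 3 counts in a library, among them Six6 at 0 throughout, and the list summed to 27.2 to 39.8 CPM. Ttr, the leading choroid plexus gene, was at 195 CPM in vehicle replicate 2 and 308 CPM in BPA replicate 2, and at 2.21 to 11.9 CPM in the other 4 libraries.

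Maternal BPA left no detectable difference in any of the 9 factors. With edgeR's quasi-likelihood test and a Benjamini-Hochberg adjusted threshold of 0.1, 0 of 9 were called, as were 0% of all 13741 genes tested. Of the 9, again 0 had an unadjusted p under 0.05, where the share over all genes was 2.2% (1.02% higher and 1.18% lower in BPA). The BPA and vehicle libraries overlapped for all 9, whereas they did not overlap for 6.75% of all genes tested (3.19% with BPA above vehicle and 3.56% below). DESeq2, limma-voom, edgeR's exact test and its likelihood ratio test each also called 0 members, both at an adjusted p of 0.1 and at an unadjusted p under 0.05. Of all 13741 genes these tests called 3, 0, 2 and 4 at the adjusted threshold, in that order. At the unadjusted one they called 126, 287, 291 and 312, so few calls were to be had for any 9 genes. The smallest unadjusted p was 0.377 (Dmrta1), and each adjusted p was 0.9998. Log2 fold changes ran from -0.072 to 0.26 with a median of 0.013, against a median of 0.0016 over all genes tested. In bulk tissue such as this, a change in the number of cells that express a gene and a change in RNA per cell cannot be told apart.

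**Figure D1:**
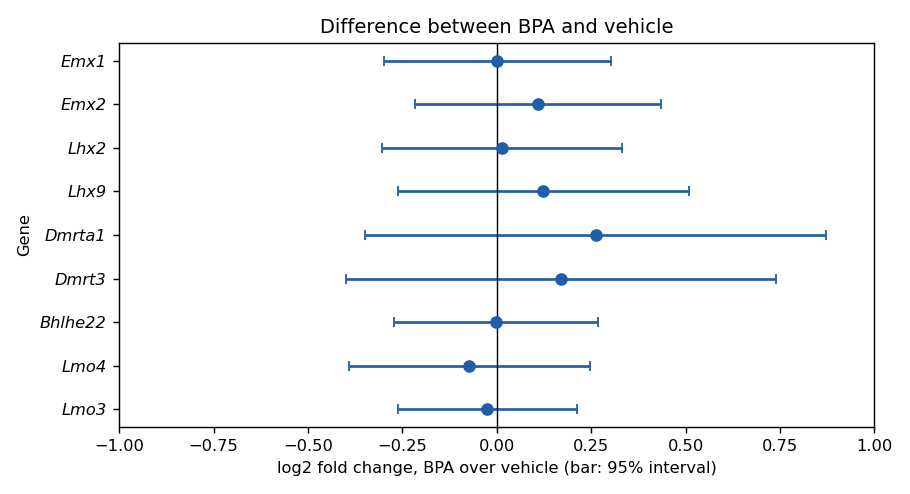
Log2 fold change of each of the 9 genes, BPA over vehicle, with its 95% interval from edgeR's quasi-likelihood test (3 libraries per group). Every interval spans 0, the narrowest being that of Lmo3 (-0.26 to 0.21) and the widest that of Dmrta1 (-0.35 to 0.87).

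The intervals show what sizes of change these libraries leave possible. The 95% interval of the fold, BPA over vehicle, reached from 0.813 to 1.23 for Emx1, from 0.809 to 1.26 for Lhx2 and from 0.828 to 1.204 for Bhlhe22. For Lmo3 it reached from 0.834 to 1.16, and for Lmo4 from 0.762 to 1.19. Emx2 (0.860 to 1.35) and Lhx9 (0.833 to 1.42) were less narrowly bounded. The upper bounds of Dmrt3 and Dmrta1, the members with the fewest counts, were 1.67 and 1.83. A change of 2-fold therefore lay outside the interval of each of the 9 genes, and a change of 1.5-fold upward lay inside it for Dmrt3 and Dmrta1.

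Among the dorsal homeobox genes, Emx1 was at 51.0, 71.1 and 67.0 CPM in vehicle replicates 1 to 3 and at 73.3, 60.1 and 54.6 CPM in the BPA libraries. The highest and the second lowest value were both BPA libraries, so the groups interleaved. Its log2 fold change was 0.0017 (SE 0.142) with an unadjusted p of 0.991 by the edgeR quasi-likelihood test. Emx2 was at 30.6, 47.9 and 39.4 CPM in vehicle and at 43.5, 46.0 and 36.8 CPM in BPA. Both the lowest and the highest Emx2 value were in vehicle libraries. The log2 fold change of Emx2 was 0.11 (SE 0.154) with an unadjusted p of 0.490.

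Lhx2, the cortical selector gene, was at 219.7 CPM, 381 CPM and 288 CPM in vehicle and at 303 CPM, 323 CPM and 269 CPM in BPA. All 3 BPA values lay between vehicle replicates 1 and 2. The group means of Lhx2 were 296 CPM ± 80.7 (SD, n = 3) and 298 CPM ± 27.6 (SD, n = 3), and its log2 fold change was 0.013 (SE 0.150). Lhx9 was at 17.6, 32.0 and 25.4 CPM in vehicle and at 27.2, 25.2 and 30.1 CPM in BPA. Here too the BPA values fell inside the range of the vehicle libraries, and the log2 fold change was 0.12 (SE 0.182).

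The DM domain genes were the least abundant members. Dmrt3 had from 28 to 81 counts per library and was at 4.85, 11.4 and 7.89 CPM in vehicle and at 8.48, 10.4 and 8.17 CPM in BPA. The BPA values again lay within the vehicle range. The log2 fold change of Dmrt3 was 0.17 (SE 0.268). Dmrta1 had from 15 to 26 counts per library, at 2.65, 3.66 and 3.16 CPM in vehicle and at 3.30, 3.90 and 4.38 CPM in BPA. BPA replicate 1 lay below vehicle replicate 2 and so made the groups overlap. Dmrta1 had the largest log2 fold change of the 9 genes, 0.26 (SE 0.288), with an unadjusted p of 0.377 by the edgeR quasi-likelihood test. Its coefficient of variation over the 6 libraries, 17.3%, was below the 22.7% that counting error alone gives at these counts.

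The 3 genes that act after cell division or as cofactors had log2 fold changes just under 0. Bhlhe22 was at 217 CPM, 271 CPM and 315 CPM in vehicle and at 241 CPM, 257 CPM and 305 CPM in BPA, with means of 268 CPM ± 49.0 and 268 CPM ± 32.9 (SD, n = 3 each). The groups overlapped, with the lowest and the highest value in vehicle libraries, and the log2 fold change was -0.0022 (SE 0.127). Lmo4 was at 145 CPM, 212 CPM and 215 CPM in vehicle and at 150.0 CPM, 217 CPM and 176 CPM in BPA. Each group had a library near the bottom and one near the top of this range, and the log2 fold change of Lmo4 was -0.072 (SE 0.150). Lmo3 was at 187 CPM, 164 CPM and 184 CPM in vehicle and at 161 CPM, 161 CPM and 205 CPM in BPA. BPA replicate 3 was the highest and the other BPA libraries the lowest. The log2 fold change of Lmo3 was -0.025 (SE 0.112).

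**Figure D2:**
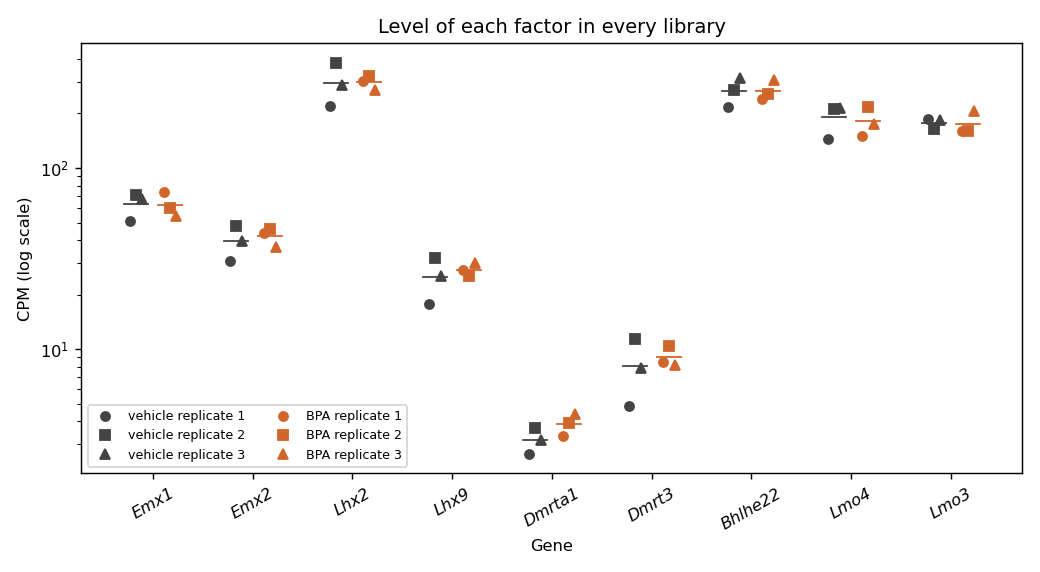
CPM of each gene in every library on a log axis, with vehicle in grey, BPA in orange, a marker shape per replicate number (the numbers pair no samples) and a bar at each group's mean. For every gene the libraries of the groups overlap, and vehicle replicate 1 is the lowest point for 8 of the 9 genes.

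The log2 fold changes of the 6 homeodomain and DM domain genes (Emx1, Emx2, Lhx2, Lhx9, Dmrta1 and Dmrt3) were all above 0. Those of Bhlhe22, Lmo4 and Lmo3 were all below 0. None passed a threshold, and the values nearest 0 were 0.0017 (Emx1) and -0.0022 (Bhlhe22). Over all genes tested 50.5% were above 0 and 49.5% below. For Emx1 and Bhlhe22 the sign changed with the test or scaling used, and for Lhx2 with thinning to equal depth. Without vehicle replicate 1, the log2 fold changes of 5 of these 6 homeodomain and DM domain genes turned below 0. They became -0.13 for Emx1, -0.047 for Emx2, -0.16 for Lhx2, -0.084 for Lhx9 and -0.10 for Dmrt3.

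For most of the 9 genes, variation between fetuses was larger than the difference between groups, and for 4 of them vehicle replicates 1 and 2 were the extremes. Dmrta1 differed, with means of 3.15 CPM ± 0.506 in vehicle and 3.86 CPM ± 0.541 in BPA (SD, n = 3 each). Vehicle replicate 1 was the lowest of the 6 libraries for 8 of the 9 genes, Lmo3 being the exception, while it was the lowest for 17.8% of all genes tested. Vehicle replicate 2 was the highest for 4 of the 9 (Emx2, Lhx2, Lhx9 and Dmrt3), against 17.1% of all genes. The median deviation of the 9 genes from their own means was -0.35 on the log2 scale in vehicle replicate 1 and 0.21 in vehicle replicate 2. In the other 4 libraries it lay between -0.021 and 0.14, and over all genes it was within 0.0087 of 0 in each library.

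**Figure D3:**
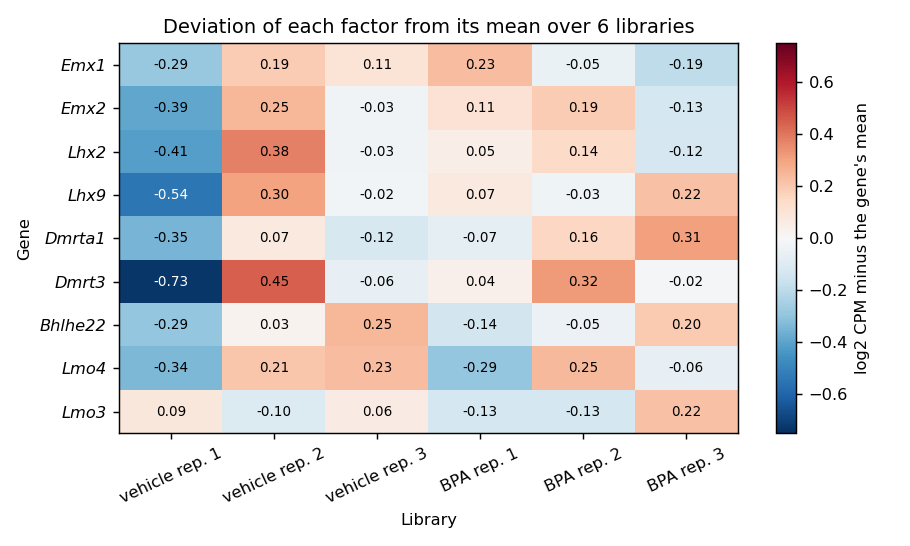
Log2 CPM of each gene (rows) in each library (columns) minus the gene's mean over the 6 libraries, with the value written in each cell. Vehicle replicate 1 is below the mean for 8 genes, most for Dmrt3 (-0.73), and vehicle replicate 2 is above it for 8 genes.

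The level in vehicle replicate 2 over that in vehicle replicate 1 was 2.35 for Dmrt3, with a 95% exact binomial interval of 1.55 to 3.64 that covers counting error only. It was 1.81 (1.45 to 2.28) for Lhx9, 1.73 (1.63 to 1.85) for Lhx2 and 1.57 (1.31 to 1.87) for Emx2. Lmo4 was 1.46 times (1.35 to 1.59), Emx1 1.39 times (1.21 to 1.60) and Bhlhe22 1.25 times (1.16 to 1.33) as high. For Lmo3 the ratio was 0.876 (0.808 to 0.949), and for Dmrta1 it was 1.38 with an interval of 0.729 to 2.68 that includes equality. Over the 9 genes the highest over the lowest library ranged from 1.14 (Lmo3) to 2.35 (Dmrt3) within vehicle and from 1.19 (Lhx9) to 1.45 (Lmo4) within BPA. Whether the spread differs between the groups was not tested.

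The biological coefficient of variation, edgeR's estimate of the spread between libraries beyond counting error, had a median of 0.128 over the 9 genes and 0.109 over all genes tested. It was highest for Dmrt3, at 0.189, above 95.1% of all genes tested. Lhx9 (0.141) was above 79.5% and Lhx2 (0.133) above 74.1%, while Lmo3 (0.0994) was above 34.7%.

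Marker lists were also compared between vehicle replicates 1 and 2, and not all of them set these libraries apart. Vehicle replicate 1 had the lowest summed level of 6 intermediate progenitor markers, 552 CPM against 569 to 686 CPM elsewhere. It had the highest of the cortical neuron markers, 11010 CPM, next to 10950 CPM in BPA replicate 3. Eomes, the defining transcription factor of intermediate progenitors, was at 177 CPM in vehicle replicate 1 and 259 CPM in vehicle replicate 2. Radial glia markers summed to 1798 CPM and 1918 CPM in these libraries, and BPA replicate 3 was lower than both at 1726 CPM. Ventral telencephalon markers were nearly equal in the 2 libraries, at 1608 CPM and 1597 CPM. Choroid plexus and hem markers summed to 37.2 CPM and 251 CPM. In BPA replicate 2 they reached 395 CPM, and the remaining libraries, at 46.0 to 55.8 CPM, were near vehicle replicate 1. The part of cell composition or dissection in the spread of the 9 genes was not tested.

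Likeness between genes over the 6 libraries was measured as the root mean square difference of log2 CPM after removing each gene's mean, among the 9 genes and 65 tested genes of the related lists below. Emx2 and Lhx2 were each other's nearest gene at 0.0626, where their own spreads were 0.217 and 0.242. The next nearest to both was Fezf2, a transcription factor of deep-layer projection neurons, at 0.0823 from Emx2 and 0.102 from Lhx2. The nearest to Emx1 were Prdm8 (0.0780), which encodes the repressor partner of Bhlhe22, and Fezf1 (0.0868). For Lhx9 they were Lhx5 (0.140) and Nr2f1 (0.145), and for Dmrt3 Lhx5 (0.144) and Lhx2 (0.157). Bhlhe22 was nearest to Wnt5a (0.0900) and Ssbp2 (0.0971), and Lmo4 to Wnt8b (0.0869) and Ssbp2 (0.131). Lmo3 was nearest to Cdh8 (0.0531) and Cyp26b1 (0.0609), and Dmrta1 to Lmo2 (0.148) and Lhx9 (0.166). These are values over 6 libraries in 2 groups that share depth and tissue, and they describe these libraries only.

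Levels were compared between genes per exonic length, as TPM (counts per kilobase of exons, scaled to the same sum in every library), with the mean and SD over the 6 libraries. Bhlhe22 was highest at 353 TPM ± 48.2, above 97.2% of the genes tested, followed by Lhx2 at 298 TPM ± 48.7. Bhlhe22 exceeded Lhx2 in 5 of 6 libraries, with overlapping ranges. Lmo4 (232 TPM ± 36.3) was below Lhx2 in 6 of 6 libraries, although their ranges over libraries also overlapped. Lmo3 (152 TPM ± 18.5) and Emx1 (127 TPM ± 17.2) did not separate, Lmo3 being higher in 4 of 6 libraries. Emx2 followed at 59.7 TPM ± 8.44. Dmrt3 (15.3 TPM ± 3.84) and Lhx9 (12.2 TPM ± 2.28) had overlapping ranges, and Dmrta1 was lowest at 3.69 TPM ± 0.653, above 7.87% of the genes tested. The exonic length joins all annotated transcripts of a gene and was 9494 bases for Lhx9 against 2184 for Emx1, so a gene with long annotated isoforms that the cortex does not use would be placed too low.

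Ratios between related genes within a library do not depend on library scaling. Emx1 was between 1.80 and 2.33 times as high as Emx2 per kilobase in the 6 libraries, and Lhx2 was between 19.2 and 27.7 times as high as Lhx9. Dmrta1 was at 0.190 to 0.322 of Dmrt3, and Lmo4 was at 1.13 to 1.96 times Lmo3. The log2 ratio of Emx1 to Emx2 was 1.15 ± 0.105 in vehicle and 1.03 ± 0.183 in BPA (SD, n = 3 each, exact two-sided permutation p = 0.4). That of Lhx2 to Lhx9 was 4.68 ± 0.0692 and 4.55 ± 0.264 (exact p = 0.6). For Dmrta1 to Dmrt3 it was -2.04 ± 0.384 and -1.98 ± 0.285 (exact p = 1), and for Lmo4 to Lmo3 it was 0.62 ± 0.391 and 0.58 ± 0.350 (exact p = 1). After adjustment over the 4 pairs each p was 1, and 3 libraries against 3 cannot give a p below 0.1. The ratio of Lmo4 to Lmo3 varied more within each group than between them. In vehicle replicate 1 the log2 ratio was 0.17 and in vehicle replicate 2 it was 0.91.

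**Figure D4:**
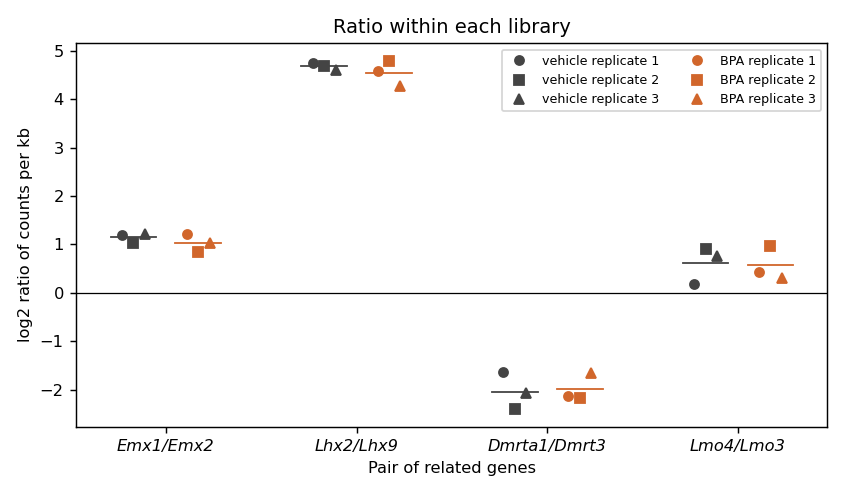
Log2 ratio of counts per kilobase within each library for 4 pairs of related genes, with vehicle in grey, BPA in orange and a bar at each group's mean. The groups overlap for every pair, and the ratio of Lmo4 to Lmo3 runs from 0.17 to 0.97 over the 6 libraries.

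The other genes of the pathway were described by 4 lists, none of which had a gene past the adjusted threshold. Of 30 further patterning genes 27 were tested, with 14 above 0, 13 below 0 and a median log2 fold change of 0.020. Tbr1, a transcription factor of early cortical neurons and the most abundant of them, was at 589 CPM ± 76.8 in vehicle and 621 CPM ± 50.7 in BPA (SD, n = 3 each). The groups did not overlap for 2 of these 27 genes, Sp8 and Sfrp2, both lower in BPA, against 6.75% of all genes tested. An unadjusted p under 0.05 was found for 1 of the 27, against 2.2% of all genes tested. This gene was Sp8, an anterior patterning factor also present in ventral precursors, at 31.9 CPM ± 5.30 in vehicle and 25.9 CPM ± 1.94 in BPA (SD, n = 3 each). Its log2 fold change was -0.31 (SE 0.145, unadjusted p = 0.0466, adjusted p = 0.9998 by the edgeR quasi-likelihood test). Sfrp2, a secreted Wnt antagonist, had a log2 fold change of -0.24 (SE 0.136), and Lmx1a, a marker of the cortical hem with 3 to 31 counts per library, one of 0.92 (SE 0.498). Dbx1 and Fgf8 never exceeded 3 counts, where a difference was not detectable.

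The 20 area markers, genes expressed in part of the cortical sheet or in area-dependent neuron types, were all tested, with 10 above 0, 10 below 0 and a median of 0.0048. None had an unadjusted p under 0.05 by the edgeR quasi-likelihood test, against 2.2% of all genes tested. The most abundant was Bcl11b, a factor of subcerebral projection neurons, at 702 CPM ± 69.3 in vehicle and 649 CPM ± 41.1 in BPA (SD, n = 3 each), a log2 fold change of -0.11 (SE 0.0986). The smallest p belonged to Efna5, an ephrin ligand, with a log2 fold change of -0.41 (SE 0.215), followed by Bcl11b and by Cyp26b1, a retinoic acid hydroxylase, at -0.13 (SE 0.129).

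Among the LIM cofactors and LIM relatives 12 of 16 were tested, with 6 above 0, 6 below 0 and a median of -0.0081. Ldb1, the cofactor that Lhx2, Lhx9, Lmo4 and Lmo3 bind, was at 339.9 CPM, 481 CPM and 369 CPM in vehicle and at 453 CPM, 409.5 CPM and 342 CPM in BPA. As for Lhx2, vehicle replicate 1 was lowest and vehicle replicate 2 highest. Its log2 fold change was 0.020 (SE 0.130). In this list 3 of the 12 genes tested had an unadjusted p under 0.05 and were lower in BPA, against 1.18% of all genes tested, and all 3 are LIM homeodomain factors of ventral precursors or neurons. For each of the 3 the BPA libraries lay wholly below the vehicle libraries, against 3.56% of all genes tested. Lhx8 was at 14.4 CPM ± 5.18 in vehicle and 5.68 CPM ± 2.81 in BPA, a log2 fold change of -1.34 (SE 0.314). Isl1 had a log2 fold change of -0.36 (SE 0.132) and Lhx6 one of -0.21 (SE 0.0969). The adjusted p of each was 0.9998 by the edgeR quasi-likelihood test.

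Of 10 Emx, Dmrt and Bhlhe relatives 6 were tested, with 1 above 0 and 5 below 0 and a median of -0.40, which was -0.088 when no filter on low counts was applied. Those with an unadjusted p under 0.05, 2 of the 6 against 1.18% of all genes tested that were lower at that threshold, were Olig1 (-0.45, SE 0.188) and Olig2 (-0.44, SE 0.164), which are basic helix-loop-helix relatives of Bhlhe22 known from ventral progenitors and the oligodendrocyte lineage. Dmrtb1 had a log2 fold change of -0.53 (SE 0.290). The adjusted p of all 3 was 0.9998 by the edgeR quasi-likelihood test.

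Markers of the ventral telencephalon, to which Lhx6, Lhx8 and Isl1 also belong, were centred below 0. All 18 were tested and 18 had a log2 fold change below 0, with a median of -0.29, and 10 had an unadjusted p under 0.05, against 1.18% of all genes tested that were lower at that threshold. None passed the adjusted threshold of 0.1 by the edgeR quasi-likelihood test. The BPA libraries lay wholly below the vehicle libraries for 13 of the 18, compared with 3.56% of all genes tested. The most abundant were Dlx1, at 364 CPM ± 15.6 in vehicle and 314 CPM ± 25.9 in BPA, and Gad2, at 171 CPM ± 20.3 and 155 CPM ± 4.09 (SD, n = 3 each). This list was written with earlier results of these data known, so its direction is not independent evidence. Of the 9 pallial factors, 0 had BPA libraries wholly below or above the vehicle libraries, against 6.75% of all genes tested. Their median log2 fold change was 0.013. The difference between the lists was not tested. Markers of radial glia (median -0.0090 over 10 genes), intermediate progenitors (0.049 over 6) and cortical neurons (0.032 over 12) also had medians near 0. The 8 Cajal-Retzius markers, of early-born neurons from the hem and other pallial borders, summed to 589.9 to 642 CPM in vehicle and to 652 to 749.8 CPM in BPA. These sums did not overlap between the groups. Their median log2 fold change was 0.22, with 6 genes above 0 and 2 below. An unadjusted p under 0.05 was found for 2 of the 8, both higher in BPA, against 1.02% of all genes tested. The BPA libraries lay wholly above the vehicle libraries for 2 of the 8, against 3.19%. The most abundant were Reln (0.14, SE 0.0986) and Nhlh2 (0.36, SE 0.158). None of the 8 passed the adjusted threshold. Of the choroid plexus and hem markers 7 of 10 were tested, with 5 above 0 and a median of 0.39, and their sums overlapped between the groups. In that list Rspo3, a secreted Wnt agonist of the hem, was higher in every BPA library than in any vehicle library, with a log2 fold change of 0.39 (SE 0.138, unadjusted p = 0.0130, adjusted p = 0.9998 by the edgeR quasi-likelihood test). The summed levels of blood, vessel and microglia markers overlapped between the groups. Of 8 blood markers 6 were tested, with 1 above 0, 5 below 0 and a median of -0.29. An unadjusted p under 0.05 was found for 1 of the 6, against 1.18% of all genes tested that were lower at that threshold. It was Hba-a1, with a log2 fold change of -0.43 (SE 0.200). Its adjusted p was 0.9998 by the edgeR quasi-likelihood test. The medians of the vessel and microglia markers were -0.067 and -0.033. The part of tissue composition in the values of the 9 factors was not tested.

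**Figure D5:**
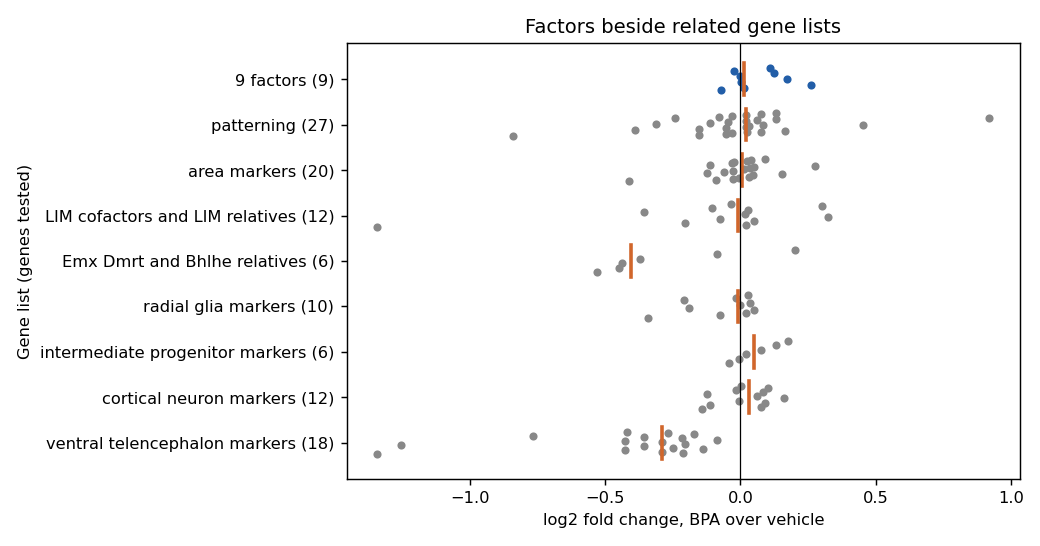
Log2 fold change, BPA over vehicle, of each tested gene in the set of 9 factors (blue) and in 8 related lists (grey), with an orange bar at each list's median and the number of genes tested in brackets. The 9 factors lie between -0.072 and 0.26, while all 18 ventral telencephalon markers lie below 0.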

How the data were processed

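The values used were read counts per gene symbol, which the authors deposited for 3 vehicle and 3 BPA libraries. According to the study's methods, strand-specific libraries gave 50-base single-end reads, which TopHat 2.0.14 placed on GRCm38 and featureCounts summarised. Transcripts were assembled with StringTie 1.2.4 on GENCODE models. The annotation, strand and multi-mapping settings of the counting are not stated. Groups came from the labels' treatment field, and replicates were numbered in accession order.

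In R 4.3.3, genes were kept by filterByExpr of edgeR 4.0.16 (minimum count 10, minimum total 15), which left 13741 genes with 99.7% of counts. After TMM scaling, a 2-group model of treatment alone was fitted (glmQLFit, glmQLFTest), and p-values were adjusted by Benjamini-Hochberg over all genes tested, with 0.1 as the threshold. The script was tested on simulated data. Log2 CPM used a prior count of 2, and ratios added 0.5 to each count. Exonic lengths came from GENCODE M21. Alternatives used DESeq2 1.42.0, limma 3.58.1 (voom), other edgeR tests, scalings and filters, thinning, summing with overlapping genes, and omission of each library. All 9 members are named. Of each pathway list the most abundant gene and the 3 with the smallest p were to be named, of each marker list the 2 most abundant (here only where a result touches them), and for each member the 2 most like it. Emx2os and the genes named as at or near 0 lie outside this rule and were chosen after their values were seen. Rspo3 is among the 2 most abundant of its list, and its values were also seen before it was named. The members and lists were chosen with earlier results of these data known. A level of 3 counts, taken as the limit of detection, equals 0.422 to 0.875 CPM. This floor and the counting intervals cover counting error only.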

Additional observations from a re-analysis of the deposited data

How the results depend on the processing

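Under 18 alternatives, 0 of the 9 factors passed an adjusted p of 0.1 or an unadjusted p of 0.05. Only 7 of the factors passed a minimum of 10 CPM in 3 libraries. Of all genes, 19 of 23501 passed the adjusted threshold with no filter, and at most 4 did under any other alternative. Those past the unadjusted threshold ranged from 126 of 13741 (DESeq2) to 708 of 13886 (without vehicle replicate 2). Of 160 log2 fold changes recomputed for single factors, 133 kept their direction and 27 changed it, 18 of these on leaving out a library. Emx1 turned to -0.0013 with DESeq2, -0.0003 with the exact and likelihood ratio tests, -0.0009 with upper quartile scaling and -0.034 after thinning to the smallest library. Thinning turned Lhx2 to -0.0165, and Bhlhe22 turned to 0.0123 with thinning, 0.0065 with limma-voom and 0.001 with library size alone. Leaving out one library gave from -0.1313 to 0.105 for Emx1, -0.0474 to 0.2882 for Emx2, -0.1634 to 0.2395 for Lhx2, -0.0837 to 0.3576 for Lhx9, -0.1048 to 0.5448 for Dmrt3, -0.1327 to 0.1286 for Bhlhe22, -0.2364 to 0.0495 for Lmo4 and -0.1474 to 0.0343 for Lmo3. Dmrta1 stayed above 0, from 0.1413 to 0.3963.

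The number of factors whose groups did not overlap was 0. It was 1 after thinning (Dmrta1, against 7.04% of all genes), and from 0 to 2 on leaving out a library: Dmrt3 and Dmrta1 without vehicle replicate 2 (19.7% of all genes), Dmrta1 without BPA replicate 1 (13.5%) and Lmo3 without BPA replicate 3 (14.9%). For the log2 ratios, BPA minus vehicle, leaving out a library gave from -0.2134 to -0.0302 for Emx1 to Emx2, -0.2512 to 0.0104 for Lhx2 to Lhx9, -0.1297 to 0.2524 for Dmrta1 to Dmrt3 and -0.2626 to 0.1063 for Lmo4 to Lmo3. The median log2 fold change of the area markers ranged from -0.08 to 0.0337 on leaving out a library, and that of the Emx, Dmrt and Bhlhe relatives moved to -0.0882 with no filter, which tested further genes of low count. The cause of the other changes was not tested. At 15 to 26 counts per library, the 6 libraries varied less for Dmrta1 (17.3%) than counting error alone gives (22.7%). No paired analysis was possible because the labels give no replicate numbers shared between the groups.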
